A study of Chlorocebus aethiops with 10 samples.

Results

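The 10 genes described here mark Kupffer cells, the resident macrophages of the liver, and macrophages in general. They were taken by gene symbol from a fixed list, and all 10 were measured, by 13 of the 45033 array features, among 16583 genes in all. Expression was read on one-colour arrays, 1 per animal, in liver biopsies of adult female African green monkeys (Chlorocebus aethiops). All were moderately obese and had eaten a high-fat diet over 12 weeks. The study allotted 20 animals at random to 4 groups, and the single-target groups, antimiR-33a and antimiR-33b, are not analysed here. The treated animals (n = 5) were given antimiR-33a/b, an oligonucleotide that blocks the microRNAs miR-33a and miR-33b, by subcutaneous injection, with a loading dose of 20 mg/kg and weekly doses of 5 mg/kg. The vehicle animals (n = 5) were given 0.9% NaCl. All biopsies date from day 57, at the end of 8 weeks of dosing.

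Kupffer cells line the liver sinusoids and clear bacteria, dying cells, modified lipoproteins and free haemoglobin from portal blood. They do so through scavenger receptors, complement receptors and receptors for phosphatidylserine, and they are maintained by signals through the CSF1 receptor. In macrophages of mice and humans, miR-33 is known to restrain the cholesterol exporter ABCA1. A whole biopsy holds mostly hepatocytes, so a lower marker value cannot be told apart from fewer cells of the type or less RNA per cell.

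The deposited values are centred per feature, so they give differences between animals and no levels. Whether a marker lay above background is therefore unknown, and the tissue label could not be checked by marker levels. The log base is not given in the sources used here, and the values were read as log2, so that folds would be larger if the base were e. Array medians ran from -0.054 to 0.061, and 0 arrays held identical values. ABCA1 was higher in treated animals by 0.45 (SE 0.11, limma adjusted p = 0.0141). With the contrast described next as a covariate the difference stayed at 0.45, with an SE of 0.17 and an adjusted p of 0.122. SREBF2, a host gene of miR-33a, fell by 0.20 (adjusted p = 0.0380; up to 0.0950 in the 7 fits without 1 animal in which it missed the threshold, and -0.11 with an adjusted p of 0.402 with the contrast), and SREBF1, a host gene of miR-33b, differed by -0.10 (adjusted p = 0.418). Values were higher in treated animals for 59.2% of all genes. Per array, housekeeping gene families minus families that liver does not normally express gave a contrast of -0.29 to -0.013 in vehicle animals and -0.086 to 0.21 in treated animals. The vehicle animal at -0.013 was animal 4, so it lay among the treated animals on this scale. Values without animal 4 and with the contrast in the fit are given beside the marker results.

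None of the 10 marker genes differed between treated and vehicle livers past the threshold, an adjusted p of 0.05 in limma over all genes. Of all 16583 genes, 20.5% passed (13.7% higher and 6.8% lower in treated animals). After quantile normalization those that passed split into 1784 higher and 1504 lower, against 2271 and 1128. Of the 10 markers, 0 passed higher, 0 passed lower, and 1 (LYZ) had an unadjusted p under 0.05, against 35.6% of all genes. The 2 groups overlapped for every one of the 10 markers, while they did not overlap for 13.3% of all genes. The difference was positive for 7 of the 10, and its median was 0.047, beside 0.039 for all genes. Without vehicle animal 4 all 10 differences were positive and 4 had an unadjusted p under 0.05. With the contrast as a covariate 4 were positive, and the 3 with such a p (CSF1R, CD5L and CD14) were lower in treated animals. Of all genes, 4117 passed the adjusted threshold without vehicle animal 4 and 825 with the contrast. The median difference of all genes was 0.030 without vehicle animal 4 and 0.089 with the contrast. The shares of all genes with a positive difference and with an unadjusted p under 0.05 were not counted in either fit. What these counts say about the markers in particular is therefore unknown. Within groups, 7 of the 10 varied more between animals than 90% of all genes.

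The haemoglobin scavenger receptor CD163 takes up haemoglobin bound to haptoglobin and is restricted to monocytes and macrophages. Its values in vehicle animals 1 to 5 were -0.34, -0.80, -0.50, 0.44 and -0.033, and in treated animals 1 to 5 they were -0.090, -0.066, -0.0052, -0.20 and -0.30. The treated values all lay inside the vehicle range, which was set by animals 2 and 4. The difference was 0.11 (SE 0.18, 95% confidence interval -0.27 to 0.49, limma adjusted p = 0.682), a fold of 1.08 with an interval of 0.832 to 1.40. CD163 was read by 2 features, and they disagreed in sign, at -0.037 and 0.26 (adjusted p = 0.906 and 0.257). On a single array the 2 features lay up to 0.31 apart.

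MARCO, a scavenger receptor that binds bacteria and particles, had vehicle values of -0.29, -1.19, -0.085, 0.17 and -0.28. Its treated values were 0.045, -0.19, 0.21, -0.15 and -0.13. Vehicle animal 2 lay far below all other animals, and treated animal 3 lay just above vehicle animal 4. Vehicle animals averaged -0.34 ± 0.51 (SD, n = 5), and the treated mean was -0.044 ± 0.17 (SD, n = 5). The difference of 0.29 (95% confidence interval -0.12 to 0.71, limma adjusted p = 0.298) shrank to 0.079 without vehicle animal 2 (adjusted p = 0.662). MSR1, the class A scavenger receptor for modified low-density lipoprotein, spread far less. Its vehicle values were -0.074, -0.22, -0.10, -0.047 and 0.14, and its treated values were -0.19, 0.018, 0.11, 0.056 and 0.00088. The lowest values came from 1 animal of each group, and the difference was 0.058 (95% confidence interval -0.11 to 0.22, limma adjusted p = 0.617). The 2 MSR1 features gave 0.017 and 0.099.

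CD68, a lysosomal glycoprotein of phagocytes, had vehicle values of 0.20, -0.47, -0.40, 0.37 and -0.24. Treated values were -0.086, -0.47, 0.060, -0.060 and -0.15. Vehicle animals held the 2 highest values, and the lowest came from treated animal 2, level with vehicle animal 2. The difference of -0.033 (95% confidence interval -0.37 to 0.30, limma adjusted p = 0.899) corresponds to a fold of 0.977.

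**Figure D1:**
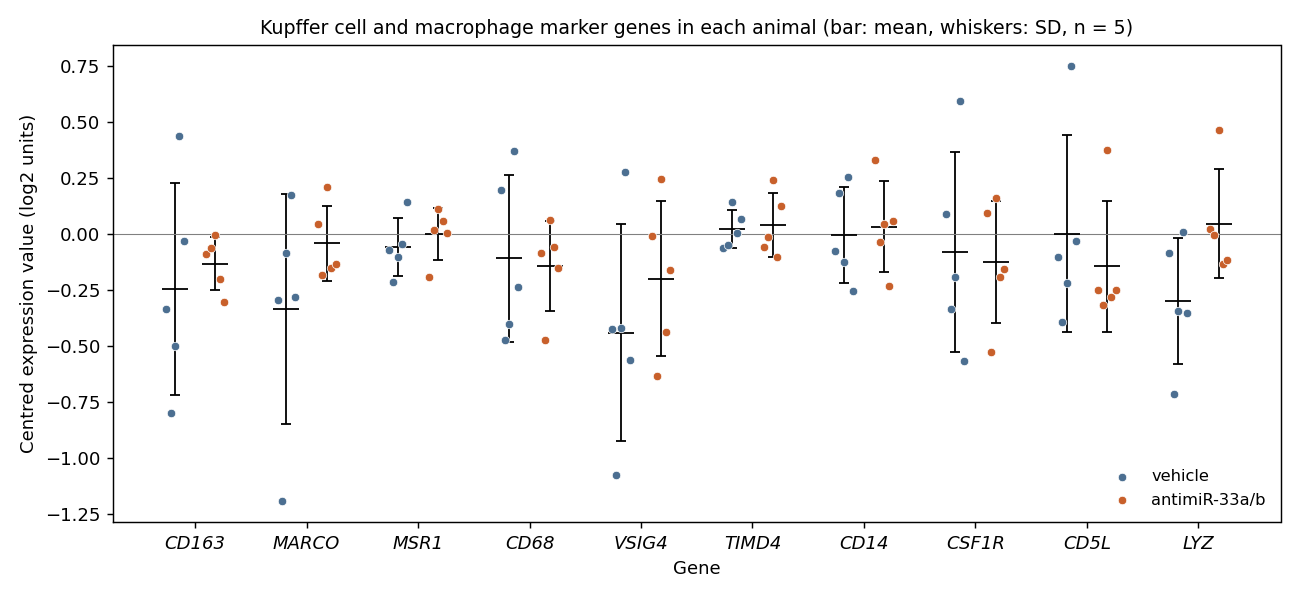
Centred expression value in log2 units (vertical axis) of the 10 marker genes (horizontal axis), with 1 point per animal, vehicle in blue and antimiR-33a/b in orange; bars are means and whiskers are SD (n = 5 per group). The groups overlap for every gene, and the vehicle points of CD163, MARCO and VSIG4 spread furthest, with MARCO down to -1.19.

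VSIG4, a receptor for complement C3 fragments that captures bacteria from the blood, had the widest spread within groups of the 10. Vehicle values were -0.42, -1.08, -0.42, 0.28 and -0.56, and treated values were -0.0082, -0.63, 0.24, -0.44 and -0.16. Vehicle animal 2 was lowest, and vehicle animal 4 and treated animal 3 were highest and close together. The difference was 0.24 (SE 0.21, 95% confidence interval -0.21 to 0.70, limma adjusted p = 0.436). TIMD4 binds phosphatidylserine on dying cells and marks long-resident macrophages in mice. Its vehicle values were -0.062, -0.052, 0.14, 0.0047 and 0.066, and its treated values were -0.061, -0.013, 0.24, -0.10 and 0.13. Treated animals held both the highest and the lowest value, and the difference was 0.019 (95% confidence interval -0.14 to 0.18, limma adjusted p = 0.881).

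CD14 presents bacterial lipopolysaccharide to TLR4, and hepatocytes make it as well as macrophages. Vehicle values were -0.079, 0.18, -0.12, 0.25 and -0.25, and treated values were 0.33, -0.037, 0.045, -0.23 and 0.057. Both groups ran from about the same low to a high set by 1 or 2 animals, and vehicle animal 2, low for most other markers, was among the high ones here. The difference was 0.037 (95% confidence interval -0.21 to 0.28, limma adjusted p = 0.844), with 0.078 and -0.0043 in its 2 features.

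CSF1R is the receptor for the growth factors CSF1 and IL34, on which resident macrophages depend. Its vehicle values of 0.089, -0.34, -0.19, 0.59 and -0.57 enclosed all treated values, which were 0.091, -0.53, 0.16, -0.19 and -0.16. The highest and the lowest animal were both vehicle animals. The difference was -0.043 (SE 0.19, 95% confidence interval -0.45 to 0.36, limma adjusted p = 0.894).

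Of the secreted products, CD5L is a macrophage protein that circulates with IgM and protects macrophages from apoptosis. Its vehicle values were -0.11, -0.39, -0.22, 0.75 and -0.034, and its treated values were -0.25, -0.32, 0.37, -0.28 and -0.25. In each group 1 animal stood above the other 4, vehicle animal 4 and treated animal 3. The difference of -0.15 was the lowest of the 10 (95% confidence interval -0.55 to 0.26, limma adjusted p = 0.613).

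LYZ, the bacteria-degrading enzyme lysozyme of monocytes, macrophages and neutrophils, came closest to the threshold. Vehicle values were -0.088, -0.72, -0.34, 0.0061 and -0.36, and treated values were 0.023, -0.0061, 0.46, -0.13 and -0.12. Treated animals 1 and 3 lay above all vehicle animals, and vehicle animals 1 and 4 lay among the treated ones. The means were -0.30 ± 0.28 in vehicle (SD, n = 5) and 0.045 ± 0.24 in treated livers (SD, n = 5), a difference of 0.34 (SE 0.14, 95% confidence interval 0.049 to 0.64) or 1.27-fold. It did not pass in limma (p = 0.0257, adjusted p = 0.0900), and the exact permutation test (two-sided, 252 ways to assign the animals) gave p = 0.0873, where 0.0079 is the smallest p possible. Without vehicle animal 4 the difference was 0.42 and passed (adjusted p = 0.0401), and without vehicle animal 2 or treated animal 3 it was 0.24 in both fits (adjusted p = 0.202 and 0.201). Of 8 neutrophil and red cell markers 0 passed, beside 20.5% of all genes. The 1 with an unadjusted limma p under 0.05 was the red cell gene HBB. The part of neutrophils in the LYZ values was not tested.

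The precision differed among the 10 markers. For 7 of them (CD163, MSR1, CD68, TIMD4, CD14, CSF1R and CD5L) the 95% confidence interval lay within a 1.5-fold change in either direction. For MARCO, VSIG4 and LYZ it reached past 1.5-fold on the higher side, to at most 1.63-fold, and for all 10 it lay within 2-fold. The median SE was 0.16, beside 0.074 for all genes. The exact permutation p of the other 9 markers ran from 0.270 for MARCO to 0.881 for CD68 and CSF1R. Each of these intervals comes from the fit without the contrast of gene families, and the folds rest on reading the values as log2. With the contrast as a covariate, the intervals of CSF1R and CD5L reached past 2-fold on the lower side (-1.09 and -1.17). Of the 7 markers named first, CD163 and CD68 also reached past 1.5-fold on that side (-0.74 and -0.84). Without the contrast, 1 CD163 feature on its own had an interval of -0.082 to 0.61, past 1.5-fold on the higher side.

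**Figure D2:**
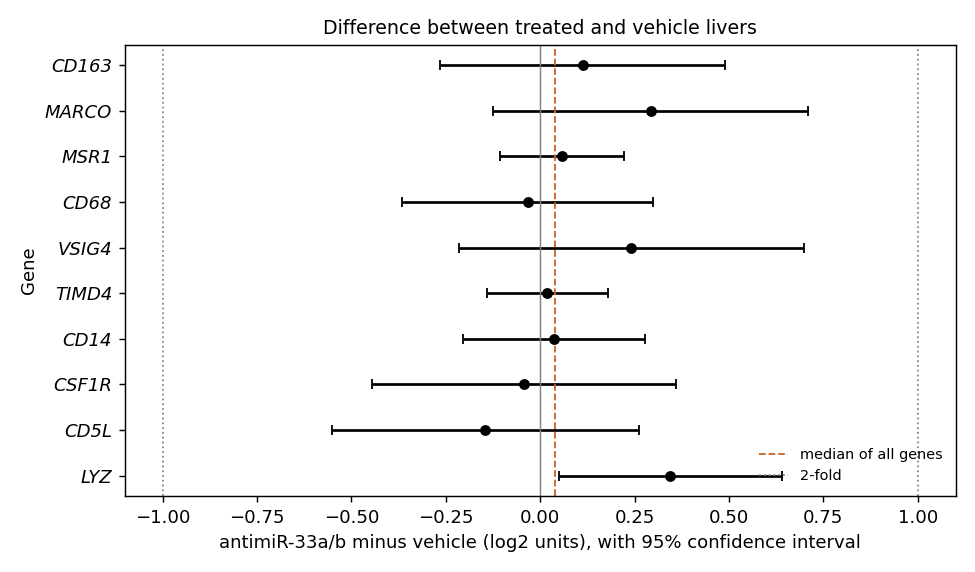
Difference between antimiR-33a/b and vehicle animals in log2 units (horizontal axis) for each marker gene (vertical axis), with its 95% confidence interval; the dashed line is the median of all genes and the dotted lines are 2-fold. The interval of LYZ, 0.049 to 0.64, lies above 0, and the other 9 intervals hold 0.

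With the contrast of gene families as a covariate, 0 of the 10 passed. The difference of MSR1 moved up, those of the other 9 moved down, and their median turned from 0.047 to -0.23, while the median of all genes was 0.089. CSF1R moved most, to -0.66 (95% confidence interval -1.09 to -0.23, limma adjusted p = 0.0673). CD5L differed by -0.64 (95% confidence interval -1.17 to -0.098, adjusted p = 0.120) and CD14 by -0.30 (-0.57 to -0.034, adjusted p = 0.133). CD68 differed by -0.38, VSIG4 by -0.33 and CD163 by -0.16, with adjusted p of 0.262, 0.438 and 0.732. MARCO (0.071), LYZ (0.12), MSR1 (0.15) and TIMD4 (0.0078) had positive differences in that fit. The intervals in this fit are wider, and the contrast is itself higher in treated animals, so the treatment and the contrast cannot be told apart in 10 arrays. Leaving out single animals moved the median between 0.010 (without vehicle animal 2) and 0.11 (without vehicle animal 4).

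The markers differed between animals more than most genes did. The SD within groups was 0.42 for VSIG4, 0.38 for MARCO, 0.37 for CD5L and CSF1R, 0.34 for CD163, 0.30 for CD68 and 0.26 for LYZ. All 7 exceeded 0.21, the 90th percentile of all genes. CD14 was at 0.21, at the 89.5th percentile, and MSR1 and TIMD4 were at 0.12, near the median of all genes (0.12) and of families that liver does not normally express (0.12). The SD was larger in vehicle than in treated animals for 9 of the 10, and 3.96 times as large for CD163, where the treated animals spanned -0.30 to -0.0052. The exception was TIMD4. Since the 10 markers are read in the same animals, their spreads are not independent, and the difference in spread between groups was not tested.

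The same few animals held the extremes of several markers. Vehicle animal 2 was the lowest animal for 6 markers and among the lowest 3 for 8. Vehicle animal 4 was the highest for 5 and among the highest 3 for 8, and treated animal 3 was the highest for 3 and among the highest 3 for 9. The median over the 10 markers was -0.43 in vehicle animal 2, 0.26 in vehicle animal 4 and 0.19 in treated animal 3, and it ran from -0.25 to -0.035 in the other 7. Each group thus held 1 animal with high markers, and the lowest animal was a control.

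**Figure D3:**
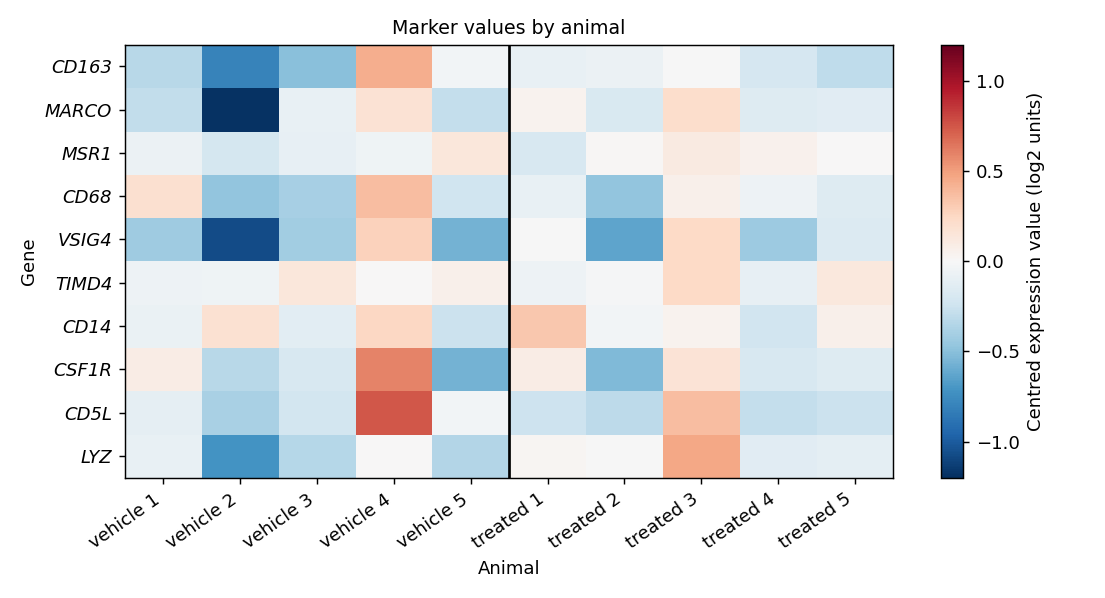
Centred expression value in log2 units (colour) of the 10 marker genes (rows) in the 10 animals (columns), with a line between vehicle and treated animals. Vehicle animal 2 is blue for most genes (median -0.43), and vehicle animal 4 (0.26) and treated animal 3 (0.19) are red for most.

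Other genes of resident macrophages ranked the same animals at the ends. Over 18 measured genes of resident Kupffer cells and of dying-cell clearance, the median was highest in vehicle animal 4 (0.091) and treated animal 3 (0.081) and lowest in vehicle animal 2 (-0.23). The median of 21 pan-myeloid genes was also highest in vehicle animal 4 (0.066), and it was lowest in treated animal 1 (-0.147) and vehicle animal 2 (-0.143). Over 14 genes of monocytes and recruited macrophages vehicle animal 4 stood in the middle at 0.0062 and treated animal 1 was lowest at -0.12. Endothelial markers were lowest in vehicle animal 2 too (-0.32) and highest in treated animal 3 (0.26), while hepatocyte markers were lowest in vehicle animal 1 (-0.37). What part other cell types or the array contrast had in the animal pattern was not tested.

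Across the 10 animals, 41 of the 45 pairs of markers correlated positively, with a median Pearson r of 0.48. Leaving out, for each pair, the 2 animals farthest from the median of its first gene lowered the median r to 0.24, with 34 pairs positive. For all pairs of the 16583 genes the median was 0.08, and 55.4% were positive. After Benjamini-Hochberg adjustment over the 45 pairs, 7 pairs passed by Pearson's r and 2 by Spearman's rho. MARCO and VSIG4 had r = 0.88 (adjusted permutation p = 0.0036) and rho = 0.89 (adjusted permutation p = 0.0238), and r was 0.88 without the 2 animals farthest from the MARCO median. VSIG4 and CSF1R had r = 0.79 (adjusted permutation p = 0.0497) and rho = 0.92 (adjusted permutation p = 0.0238), with r = 0.60 without the 2 farthest animals.

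CD68 and CSF1R had r = 0.86 (adjusted permutation p = 0.0322) and rho = 0.79 (adjusted permutation p = 0.131), with r = 0.69 without the 2 farthest animals. VSIG4 with LYZ reached r = 0.82 and kept 0.77. MARCO with LYZ (0.83), CD163 with CD5L (0.77) and CD68 with CD5L (0.76) dropped to 0.47, 0.41 and 0.52 without the 2 farthest animals. Without any 1 animal, their lowest r was 0.70, 0.53 and 0.56. Leaving out the farthest animals narrows the range and tends to lower r, so the drop cannot show how far these pairs rest on them. For these 4 pairs with LYZ or CD5L, r had an adjusted permutation p of 0.0497 and rho did not pass (adjusted permutation p from 0.131 to 0.212). Within groups, after each group's mean was removed, the 7 pairs had r from 0.76 to 0.87. With the contrast of gene families removed, in a check added after the data were examined, r ran from 0.69 to 0.86. The lowest r of these pairs, 0.757, is reached by 5.05% of all pairs of genes. TIMD4 correlated with no other marker above 0.44, and MSR1 and CD14 ran against each other (r = -0.64, rho = -0.58; adjusted permutation p = 0.141 and 0.233).

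**Figure D4:**
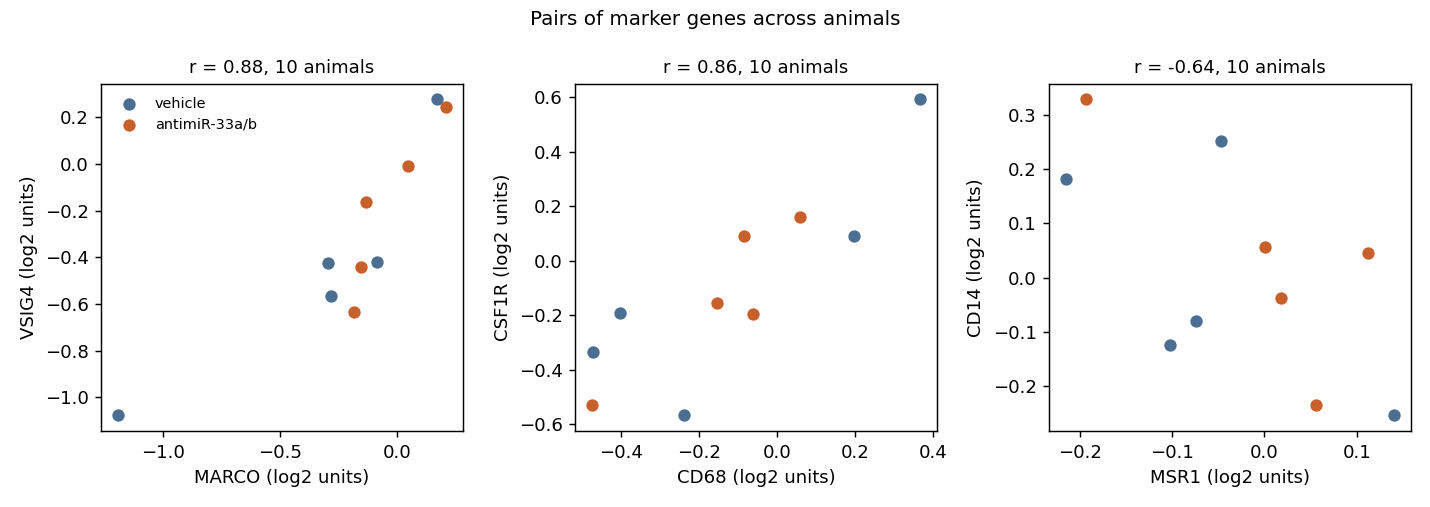
Values of 2 marker genes against each other in log2 units, with 1 point per animal, vehicle in blue and antimiR-33a/b in orange, for MARCO and VSIG4 (r = 0.88), CD68 and CSF1R (r = 0.86) and MSR1 and CD14 (r = -0.64). In the first panel vehicle animal 2 stands alone at the lower left, and the other animals tend to rise from left to right, though not at every step.

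Beyond the 10 markers, 15 of 108 measured genes in 8 macrophage-related lists passed in limma, 7 higher and 8 lower in treated animals. That is 13.9%, beside 20.5% of all genes, and the median difference of the 108 was 0.011. The lists also hold genes that other liver cells make, among them STAB2 and CD36, so these counts do not describe macrophages alone. Of the 8 that fell, the largest difference was that of cathepsin S (CTSS), a lysosomal protease of antigen-presenting cells. CTSS averaged 0.30 ± 0.14 in vehicle (SD, n = 5) and -0.17 ± 0.21 in treated livers (SD, n = 5), a difference of -0.47 (SE 0.10, adjusted p = 0.0080). TREM2, a lipid-sensing receptor of macrophages in diseased tissue, fell by 0.41 (SE 0.076, adjusted p = 0.0046). Its vehicle values were 0.29, 0.28, 0.25, 0.092 and 0.31, and its treated values were -0.25, 0.092, -0.19, -0.19 and -0.28. The groups did not overlap, but treated animal 2 and vehicle animal 4 were nearly level.

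In the growth factor list, 1 of 9 genes rose and 2 fell (33.3% called, beside 20.5% of all genes). The counts of single lists are small and were not tested. CSF2RB, the shared beta chain of the GM-CSF, IL-3 and IL-5 receptors, fell by 0.35 (adjusted p = 0.0051), and IL34, a ligand of CSF1R, was lower by the same test (-0.23, adjusted p = 0.0311). INPP5D, a lipid phosphatase that dampens signals of such receptors, rose by 0.21 (adjusted p = 0.0223). The other ligand, CSF1, differed by -0.16 (adjusted p = 0.164). Of 21 pan-myeloid genes 3 fell (14.3%, beside 6.8% of all genes) and 0 rose. They were CTSS, LST1 (-0.23, adjusted p = 0.0210), and ADGRE1, an adhesion receptor used as a macrophage marker in mice (-0.22, adjusted p = 0.0430). TREM2 was the 1 gene of 14 from monocytes and recruited macrophages that passed (7.14% lower, beside 6.8% of all genes).

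Around CD14, 1 of 11 genes rose and 1 fell (18.2% called, beside 20.5% of all genes). IRAK1, a kinase downstream of Toll-like receptors, rose by 0.21 (adjusted p = 0.0347), and TIRAP, an adaptor that links TLR4 to MYD88, fell by 0.22 (adjusted p = 0.0214). TLR4 itself differed by -0.016 and its partner LY96 by 0.069. Of 19 macrophage cytokines and activation genes 1 fell (5.26%, beside 6.8% of all genes), IL1A (-0.24, adjusted p = 0.0413). The other 18 missed the threshold, among them TNF (-0.13), IL1B (-0.13), IL6 (0.0031) and IL10 (0.0056).

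Of 18 genes of resident Kupffer cells and of dying-cell clearance, 2 rose (11.1%, beside 13.7% of all genes) and 0 fell. STAB1, a scavenger receptor of sinusoidal endothelium and macrophages, rose by 0.41 (adjusted p = 0.0254), and AXL, a receptor for bridging proteins on dying cells, rose by 0.40 (adjusted p = 0.0453). Among 9 other scavenger receptors 2 rose (22.2%, beside 13.7% of all genes) and 0 fell. CD36, the fatty acid and oxidised lipoprotein receptor, rose by 0.73 (SE 0.14, adjusted p = 0.0047), or 1.66-fold, and the endothelial receptor STAB2 rose by 0.33 (adjusted p = 0.0322). CD36 values were -0.69, -0.45, -0.78, -0.87 and -0.49 in vehicle and 0.13, -0.38, 0.43, -0.12 and 0.31 in treated animals, without overlap. Both STAB genes and CD36 are made by other liver cells too. FTL, the ferritin light chain, was the 1 of 7 genes of haemoglobin handling that rose, by 0.23 (adjusted p = 0.0322). That is 14.3%, beside 13.7% of all genes. Haptoglobin (HP), whose complex with haemoglobin CD163 takes up, differed by 0.18 (adjusted p = 0.214), and haem oxygenase HMOX1 by 0.026.

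**Figure D5:**
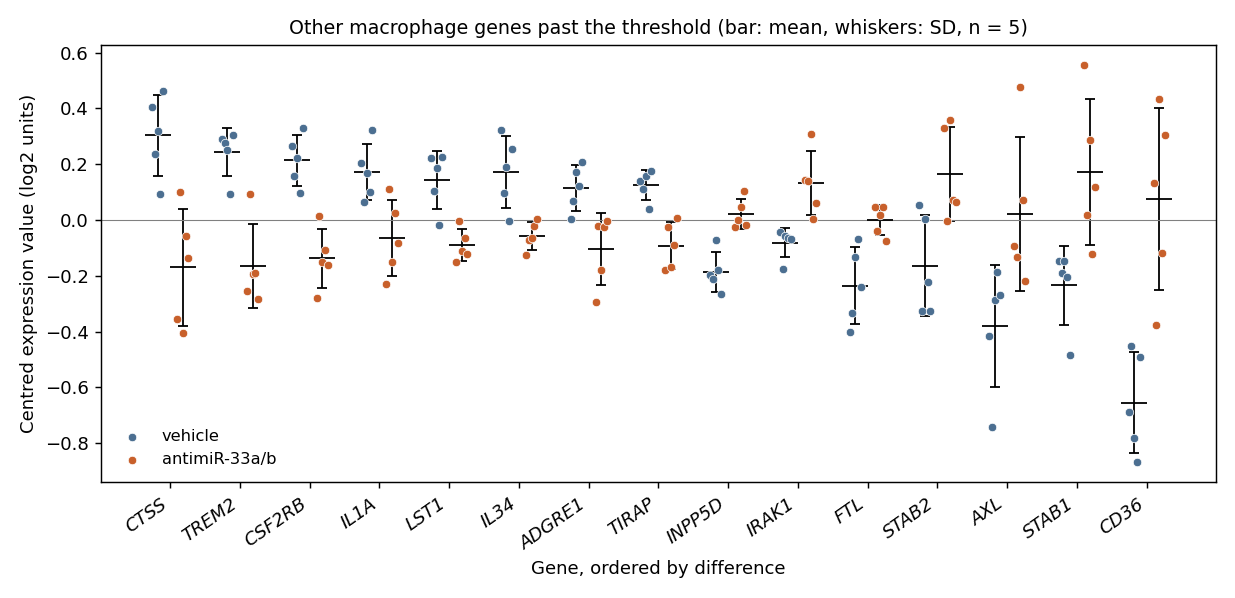
Centred expression value in log2 units (vertical axis) of the 15 genes of the macrophage-related lists that passed in limma (horizontal axis, ordered by difference). Each point is 1 animal, vehicle in blue and antimiR-33a/b in orange. Bars are means and whiskers are SD (n = 5 per group). CTSS and TREM2 stand at the falling end (-0.47 and -0.41) and CD36 at the rising end (0.73).

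The calls among these 15 genes, like those of all genes, depended on single animals and on the contrast. CTSS, TREM2, CSF2RB and CD36 passed in all 10 fits without 1 animal. LST1 missed the threshold in 1 of these fits (adjusted p = 0.0581), STAB1 in 2 (up to 0.0622), TIRAP in 3 (up to 0.0575), and INPP5D and STAB2 in 4 (up to 0.0555 and 0.0802). IRAK1, IL34, FTL and IL1A missed it in 6 fits (up to 0.0880, 0.0821, 0.0838 and 0.0950), AXL in 7 (up to 0.106) and ADGRE1 in 8 (up to 0.0975). In all, 5 of the 108 genes passed without treated animal 3, 6 without vehicle animal 1, 9 without vehicle animal 2, vehicle animal 3 or treated animal 1, and 22 without vehicle animal 4. Of all 16583 genes, 3399 passed with every animal, 2030 without treated animal 3 and 1925 without vehicle animal 1. Without vehicle animal 2, vehicle animal 3 and treated animal 1 it was 2135, 2440 and 2407, and without vehicle animal 4 it was 4117. The counts of the 108 thus moved in the same direction as those of all genes. After quantile normalization 15 passed, 4 higher and 11 lower, and 10 of them were among the first 15. With the contrast as a covariate 0 of the 15 stayed past the threshold, and 825 of all genes passed. CD36 then differed by 0.56 (adjusted p = 0.115), TREM2 by -0.23 (0.134), CSF2RB by -0.17 (0.149), INPP5D by 0.21 (0.115) and CTSS by -0.11 (0.360).

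Markers of other liver cells were read against 13.7% higher and 6.8% lower among all genes. Of 11 hepatocyte markers 5 rose and 0 fell, with ALB at 0.44 (adjusted p = 0.0072), AMBP at 0.30, TF at 0.31 and AHSG at 0.27. Of 10 stellate cell markers 3 rose (TIMP1 by 0.36, LRAT by 0.33 and RGS5 by 0.34), of 10 endothelial markers 1 rose (TEK by 0.37), and of 6 B and plasma cell markers 2 rose (TNFRSF17 by 0.23 and MZB1 by 0.26). Of 10 T and NK cell markers CD247 rose by 0.18 and 2 fell (NKG7 by 0.31 and GNLY by 0.20), and 0 of 6 cholangiocyte markers passed, with SOX9 at -0.23 and CFTR at 0.11. Among red cell markers HBB differed by 1.25 (adjusted p = 0.0551) and HBA1 by 0.92 (adjusted p = 0.155).

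With the contrast as a covariate, 1 of these markers stayed past the threshold, TIMP1 at 0.45 (limma adjusted p = 0.0433), while 825 of all 16583 genes passed. The differences of ALB (0.52), AMBP (0.30), TF (0.37) and AHSG (0.34) were about as large or larger, with adjusted p from 0.0540 to 0.0881. TEK was at 0.29 (adjusted p = 0.226), while NKG7 and GNLY shrank to -0.050 and -0.037 (adjusted p = 0.676 and 0.756). ALB, AMBP, TF, TIMP1 and NKG7 passed in all 10 fits without 1 animal. LRAT and RGS5 missed the threshold in 1 of these fits, TEK in 2, AHSG in 5, MZB1 and GNLY in 7, TNFRSF17 in 8 and CD247 in 9 (up to an adjusted p of 0.105, for TNFRSF17). Without vehicle animal 4, TNFRSF17, MZB1 and CD247 did not pass (adjusted p = 0.0621, 0.0701 and 0.0723), and SOX9 (-0.29, adjusted p = 0.0374) and HBB (1.44, adjusted p = 0.0339) did. The median of a list in each animal overlapped between the groups for all 15 lists. It came nearest to a separation for the other scavenger receptors, at -0.13 to 0.0022 in vehicle and -0.0022 to 0.096 in treated animals.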

How the data were processed

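One table of the whole series was used, with a column for each of 10 liver arrays (5 vehicle, 5 antimiR-33a/b), grouped by the labelled treatment. Per the labels' protocols, cDNA from 1 µg of RNA was labelled with Cy3. The values the authors deposited are on a log2 scale as taken here, centred per feature. How they were scanned, normalized, summarised and centred, and to which log base, is not given in the sources used here, and their precision is limited by the number of arrays. Through the platform's probe annotation, 18188 features had 1 gene symbol and 26845 had none, and values were averaged over a gene's features.

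The difference of treated from vehicle animals came from limma 3.58.1 under R 4.3.3, with lmFit and eBayes and no covariate. P-values were adjusted by Benjamini-Hochberg over all 16583 genes, with a threshold of 0.05. The fit was tested on simulated data with noise drawn independently for each gene. Such data hold no array pattern shared by genes, so they do not bear on the share of genes that passed here. Exact permutation tests used 252 assignments, and correlations used 100000 permutations. The markers and the 15 other gene lists (167 of 180 genes measured) were chosen with earlier results of these data known. From each list the text names the called genes (4 with the smallest p where more were called, 2 where none was); CSF1, TLR4, LY96, TNF, IL1B, IL6, IL10, HP and HMOX1 were chosen after their values were seen. Alternatives were quantile normalization, a shift to equal medians, the most variable feature, single features, trend and robust settings, array weights, permutation tests per gene, adjustment over all features, a gene family contrast as covariate (326 housekeeping genes against 513 genes of silent families) and leaving out each animal. Slides and scan batches could not be tested.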

Additional observations from a re-analysis of the deposited data

Results flagged for a closer look

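Within the groups of 5 animals, 1 animal lay far from the other 4 in 10 of 90 groups examined (45 named genes in 2 groups each) by Dixon's criterion, with a critical value of 0.71. Chance gives about 1 in 20 for a single group. The 90 groups are read in the same animals and are not independent, so their count was not tested against chance. Of the 10 flagged groups, 2 concern the marker genes, both in treated animal 3. CD5L was 0.37 there, while the other treated animals lay between -0.32 and -0.25. LYZ was 0.46, with the others between -0.13 and 0.023.

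Among genes of the macrophage-related lists, STAB1 was low in vehicle animal 5 (-0.49), TREM2 was low in vehicle animal 4 (0.092) and high in treated animal 2 (0.092), and IRAK1 was low in vehicle animal 2 (-0.18). Among markers of other cells, ALB (-0.10) and AMBP (-0.023) were low in treated animal 1, TF was low in vehicle animal 1 (-0.40) and TIMP1 was low in treated animal 5 (-0.082).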

How the results depend on the processing

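None of the 10 markers passed under quantile normalization, equal array medians, the most variable feature, single features, trend and robust settings or array weights. None passed under adjustment over all features or with the family contrast as covariate. Permutation tests per gene could call no gene, because the smallest possible p of 0.0079 became 0.0596 after adjustment over all genes. Without single animals 0 to 1 passed, the 1 being LYZ without vehicle animal 4. Over all 16583 genes 3399 passed, 825 with the contrast, 1925 to 4117 without single animals, and 0 by permutation tests per gene (5904 at an unadjusted limma p under 0.05). The marker median was -0.23 with the contrast and lay between 0.0073 and 0.11 otherwise. Signs of some differences turned, among them VSIG4 and SOX9, which were 0.24 and -0.23 in the main fit. Under quantile normalization TIMD4 was -0.0037 and CD14 -0.019. With the most variable feature, and for that feature alone, CD163 was -0.037 and CD14 -0.0043. With array weights CD68 was 0.056. With the contrast CD163 was -0.16, VSIG4 -0.33, CD14 -0.30 and SOX9 0.027. Without single animals CD163 ran from -0.026 to 0.28, CD68 from -0.12 to 0.086, TIMD4 from -0.032 to 0.054, CD14 from -0.037 to 0.10, CSF1R from -0.16 to 0.13 and CD5L from -0.27 to 0.041. The cause was not tested. The median r over marker pairs lay between 0.39 and 0.55 with group means or the contrast removed, after quantile normalization and without single animals, with 37 to 44 of 45 pairs positive, and was 0.24 without each pair's 2 farthest animals, with 34 positive. Counts of called genes in the other lists moved by over 1.5 times in 105 of 285 comparisons. No paired analysis was possible because no replicate number in the labels links vehicle with treated animals. Signal over background is unknown.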

Other observations

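Some genes of the macrophage-related lists outside the naming rule, chosen after their values were seen, add to the description of the animals and groups. The complement C1q chains, which Kupffer cells make, differed by -0.041 (C1QA), 0.13 (C1QB) and 0.17 (C1QC), with limma adjusted p of 0.871, 0.595 and 0.436. GPNMB, a glycoprotein of lipid-laden macrophages, differed by 0.47 (SE 0.17, adjusted p = 0.0714), against the fall of TREM2, which is often described in the same cells. The iron exporter SLC40A1 differed by 0.38 (adjusted p = 0.0819) and the adhesion molecule VCAM1 by 0.39 (adjusted p = 0.129). LBP, which carries lipopolysaccharide to CD14, differed by -0.76 with an SE of 0.40 (adjusted p = 0.195).

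Fitting the family contrast beside treatment, 2 of the 108 genes of the macrophage-related lists passed in limma, beside 825 of all 16583 genes. Neither had passed without the contrast. SCARB1, the receptor for high-density lipoprotein, differed by -0.55 (adjusted p = 0.0486; 0.097 without the covariate), and IL6 by 0.28 (adjusted p = 0.0486; 0.0031 without it).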
